A study of Mus musculus with 15 samples.

Results

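The levels of 50 named genes of the muscle extracellular matrix and of the fibroblasts that make it were examined in the tibialis anterior (TA) muscle of mice given doxorubicin, with or without a blocker of activin receptor ligands. The 50 genes were a list of names drawn up with earlier results of these data known. They comprised 17 glycoproteins, 9 components of the basement membrane, 6 proteoglycans, and 7 enzymes and helpers of collagen processing and crosslinking. The rest were 8 proteases and members of protease inhibitor families, and 3 surface proteins of fibroblasts. Of the 50 genes, 47 had a probe named for them in the annotation of the Illumina bead array. Signal above noise was found for 42, among 11458 such genes in all. Each gene was read from the brightest of its probes, and levels are log2 of the signal plus 50, so that fold changes of dim genes are understated.

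All mice were males of strain C57BL/6 in the labels and C57BL/6J in the study's methods, 8 to 10 weeks of age according to the labels, with 1 array for each mouse and 5 arrays for each of 3 groups. The Dox + sACVR2B group received sACVR2B-Fc, a soluble form of activin receptor IIB that captures myostatin and activins, 48 h before doxorubicin. The Dox group received doxorubicin, a chemotherapy drug that damages DNA, without the soluble receptor, and the Ctrl group received PBS. Muscles were collected 20 h after the last injection. Doxorubicin was thus common to both treated groups, and no group received sACVR2B-Fc alone.

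The matrix of skeletal muscle is built mainly by fibroblasts lying between the fibres, with laminins, nidogens and type IV collagen forming the basement membrane around each fibre. Collagen chains are folded and hydroxylated inside the cell, trimmed outside it and then joined by lysyl oxidases, while small proteoglycans set the spacing of the fibrils. Matrix metalloproteinases remove the same proteins, and tissue inhibitors of metalloproteinases (TIMPs) hold these enzymes in check.

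The libraries did not all go with their labels. Cdkn1a, the p53 target that encodes the cell cycle inhibitor p21 and that DNA damage induces, had signals of 2359 to 4634.2 in 10 arrays and of 131.6 to 358.8 in the other 5. The 10 arrays with a Cdkn1a signal of 1000 or more were Dox + sACVR2B 1, 2 and 3, Dox 1, 3, 4 and 5, and Ctrl 1, 4 and 5. The 5 arrays under 1000 were Dox + sACVR2B 4 and 5, Dox 2, and Ctrl 2 and 3. The libraries labelled Dox + sACVR2B 4, Dox + sACVR2B 5, Dox 2, Ctrl 1, Ctrl 4 and Ctrl 5, 6 in all, therefore had a Cdkn1a level that went against the label. No library was moved to another group. Comparisons by label are given for all libraries, with counts and medians also without these 6, and the 10 arrays are set beside the other 5 as a description only, because that division was made from a measured level. No mean, SD or test is given for it, and exposure to doxorubicin cannot be told apart there from anything else that moves with Cdkn1a.

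All 15 arrays shared a median signal of 7.6, with 43.8% to 43.9% of probes above noise. The muscle fibre markers Acta1, Ckm, Myh4 and Tnnt3 summed to 75338 to 95260 signal units per array. The satellite cell genes Pax7 and Myf5 and the fat genes Plin1 and Fabp4 stayed below noise. Other genes of both types did not. The satellite cell gene Cdh15 had signals of 301.6 to 619.3. The fat gene Adipoq ran from 44.8 in Ctrl 2 to 1479.7 in Dox + sACVR2B 5, and Lep reached 175.4 in that array. Bulk RNA does not separate fewer cells of a type from less RNA per cell, here or in any result that follows.

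Of the list, 8 genes have no level here. Fibulin 5 (Fbln5), Thbs1 and Thbs4 were above noise in 0 arrays, and periostin (Postn) and versican (Vcan) in 2 arrays each. No probe of fibrillin 1 (Fbn1), Loxl2 or Adamts2 was named in the annotation used, which leaves 10378 probes without a gene, and the 3 genes were not analysed here. Fbn1 is among the genes that the study lists from these arrays. The 42 others covered 12 of 17 glycoproteins, 9 of 9 basement membrane genes, 5 of 6 proteoglycans, 6 of 7 collagen processing genes, 7 of 8 proteases and inhibitors, and 3 of 3 surface genes.

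By Cdkn1a level, most of the 42 genes lay lower in the 10 arrays. Of the 42 genes, 4, namely Serpinh1, Loxl1, Mmp14 and Timp1, had lower levels in every one of the 10 arrays with a Cdkn1a signal of 1000 or more than in any of the other 5, and 0 had higher levels in all 10. With the median over all probes of a gene in place of the brightest, Adamts1 became the 1 gene higher in all 10, beside the same 4 lower. Of all 11458 genes, 1.89% were lower without overlap and 2.39% were higher, 4.29% in all. The median over the 42 genes of the difference of medians, the 10 arrays minus the other 5, was -0.31 on the log2 scale, against 0.00 over all genes. The difference was below 0 for 37 of the 42 genes and for 5780 of all 11458. Leaving out Ctrl 4, Dox 2 or Dox 3 raised the count of genes without overlap to 7 each time, while the share of all genes lower without overlap went to 2.70%, 2.51% and 2.11%. Leaving out an array can keep or raise this count but cannot lower it. Serpinh1, Loxl1, Mmp14 and Timp1 therefore stayed without overlap by construction. The added genes were Bgn, Fbln1 and Mfap2 without Ctrl 4, Bgn, Col15a1 and Sparc without Dox 2, and Col15a1, Serpinf1 and Thy1 without Dox 3.

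**Figure D1:**
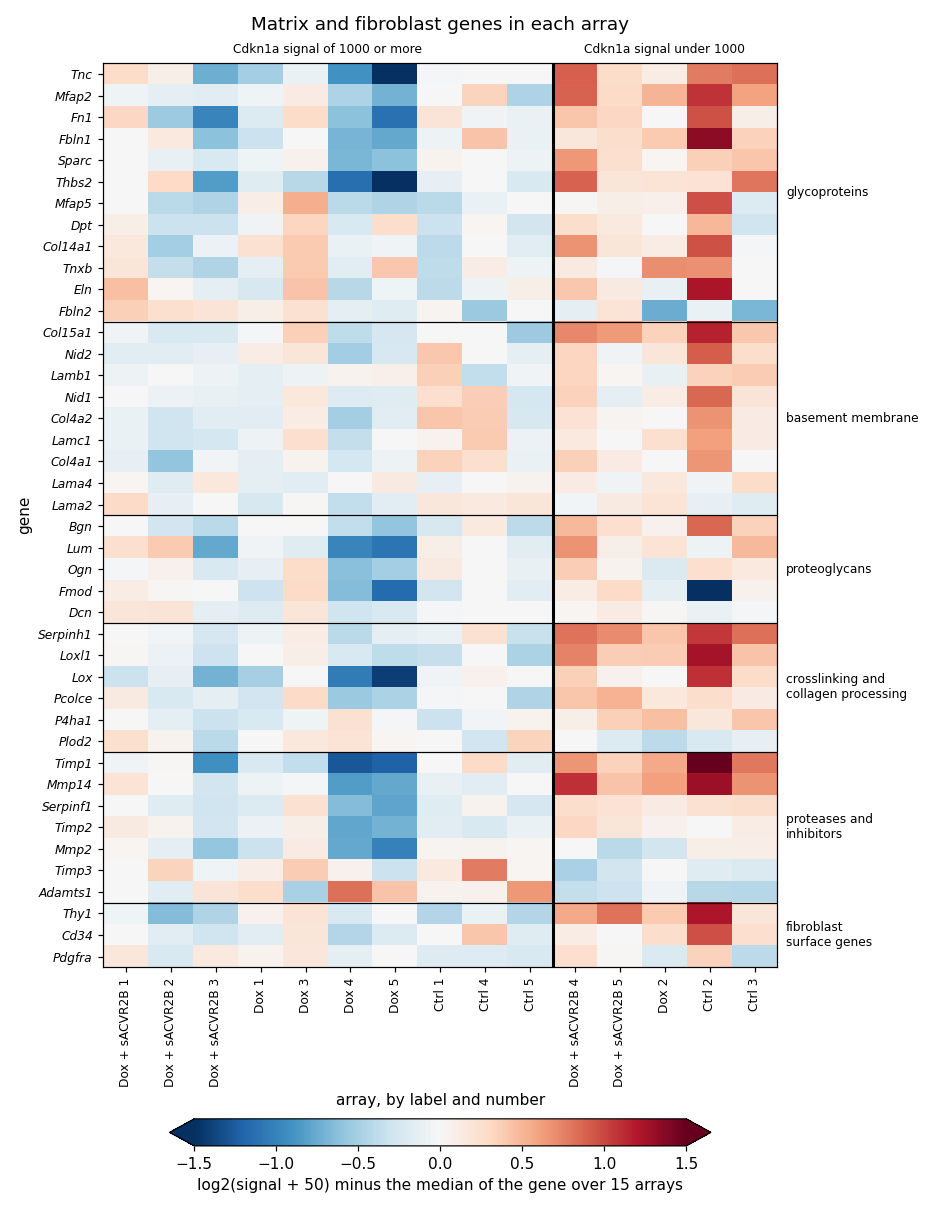
Levels of the 42 genes (rows, grouped by role) in the 15 arrays (columns, by label and number), coloured by log2(signal + 50) minus the median of that gene over all arrays, with the 10 arrays with a Cdkn1a signal of 1000 or more left of the black line and the other 5 right of it. Serpinh1, Loxl1, Mmp14 and Timp1 are higher in all 5 columns on the right than in any column on the left, Dox 4 and Dox 5 hold much of the dark blue, and Ctrl 2 much of the dark red.

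Upstream sequences of Serpinh1, Mmp14 and Timp1, which were lower without overlap, are shown first, with that of Adamts1, the gene with the highest difference in the other direction, for contrast. Adamts1 was singled out after its values were seen. Loxl1, also lower without overlap, had no upstream window in the annotation used and is not shown. Each run is the 250 bases before the transcription start in RefSeq annotation of GRCm38.p6, written 5′ to 3′ on the strand of the gene. Capitals mark matches on either strand to the TATA box TATAAA, the CCAAT box, the GC box GGGCGG, the AP-1 element TGACTCA or the Smad element CAGAC, and in Mmp14 a CCAAT match and the GGGCGG matches run into each other.
Serpinh1 (chr7:99353240-99353489, minus strand): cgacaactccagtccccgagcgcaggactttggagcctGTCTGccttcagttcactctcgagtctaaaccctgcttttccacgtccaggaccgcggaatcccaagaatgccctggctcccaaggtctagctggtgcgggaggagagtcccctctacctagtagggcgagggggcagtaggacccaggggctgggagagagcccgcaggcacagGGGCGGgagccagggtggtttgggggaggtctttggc
Mmp14 (chr14:54431348-54431597, plus strand): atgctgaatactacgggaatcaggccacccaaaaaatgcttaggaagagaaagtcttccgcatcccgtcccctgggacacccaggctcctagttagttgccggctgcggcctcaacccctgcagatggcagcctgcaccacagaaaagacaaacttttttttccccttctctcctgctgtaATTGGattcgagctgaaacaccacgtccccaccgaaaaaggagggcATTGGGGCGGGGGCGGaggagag
Timp1 (chrX:20869916-20870165, plus strand): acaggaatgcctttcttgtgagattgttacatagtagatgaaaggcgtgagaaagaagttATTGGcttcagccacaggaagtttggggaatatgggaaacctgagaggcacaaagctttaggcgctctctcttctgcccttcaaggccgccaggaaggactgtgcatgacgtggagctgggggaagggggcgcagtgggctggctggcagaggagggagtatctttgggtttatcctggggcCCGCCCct
Adamts1 (chr16:85803114-85803363, minus strand): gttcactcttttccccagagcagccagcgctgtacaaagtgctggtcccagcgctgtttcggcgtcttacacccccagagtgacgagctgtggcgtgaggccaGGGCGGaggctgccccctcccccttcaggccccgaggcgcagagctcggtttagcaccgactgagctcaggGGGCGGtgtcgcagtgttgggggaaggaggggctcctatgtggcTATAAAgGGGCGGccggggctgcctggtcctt

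All 4 windows held a GC box, 1 in Serpinh1, 2 in Mmp14, 1 in Timp1 and 3 in Adamts1, so that it did not divide genes lower in the 10 arrays from the gene higher in most of them. The TATA box stood only in the Adamts1 window, and the CAGAC letters only in that of Serpinh1. Among 34 genes of the list with an upstream window, 21 held GGGCGG (61.8%), against 32.7% of 32851 windows of the genome. TATAAA was held by 5 of the 34 (14.7%, against 12.4% of all windows), and CCAAT by 12 (35.3%, against 33.8%). TGACTCA was held by 1 (2.94%, against 4.46%) and CAGAC by 16 (47.1%, against 42.2%). A gene with more than 1 window was counted once if any of them held the letters, whereas the shares of the genome count windows, and a match of letters is not a binding site.

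Collagen processing and crosslinking held 2 of the 4 genes without overlap, and the median difference of its 6 genes, -0.47, was the lowest of the 6 roles. Serpinh1 encodes the collagen chaperone HSP47. Its level was 11.46, 11.41 and 11.21 in Dox + sACVR2B 1 to 3, 11.38, 11.57, 11.05 and 11.32 in Dox 1, 3, 4 and 5, and 11.36, 11.69 and 11.12 in Ctrl 1, 4 and 5. In the other 5 arrays it was 12.27 and 12.17 (Dox + sACVR2B 4 and 5), 11.88 (Dox 2) and 12.52 and 12.29 (Ctrl 2 and 3). The difference of medians was -0.89. Since the 2 sets of arrays were apart over all labels, they were necessarily apart within each label. A dimmer probe of Serpinh1 differed by -0.51, with overlap. Loxl1, a lysyl oxidase needed for elastic fibres, had 9.90, 10.21 and 10.47 as lowest, median and highest level in the 10 arrays. In the other 5 it had 11.11 and 10.74 (Dox + sACVR2B 4 and 5), 10.75 (Dox 2) and 11.62 and 10.80 (Ctrl 2 and 3). These ranges did not meet, with the highest level in Ctrl 2.

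The other 4 genes of collagen processing overlapped. Lox, the lysyl oxidase that joins collagen and elastin chains, had 7.81, 9.00 and 9.28 as lowest, median and highest level in the 10 arrays. It had 9.57 and 9.28 in Dox + sACVR2B 4 and 5, 9.22 in Dox 2, and 10.31 and 9.50 in Ctrl 2 and 3. Its low end came from Dox 5 at 7.81 and Dox 4 at 8.17. Pcolce, which enhances removal of the C-terminal propeptide of procollagens, had 8.19, 8.57 and 9.04 in the 10 arrays, against 9.18, 9.28, 8.91, 9.02 and 8.88 in Dox + sACVR2B 4 and 5, Dox 2 and Ctrl 2 and 3. P4ha1, a subunit of prolyl 4-hydroxylase, differed by -0.41, and Plod2, a lysyl hydroxylase, by 0.25, with overlap in both.

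The proteases and their inhibitors spread further apart than any other role, with differences from -0.85 to 0.49. Mmp14, the membrane-bound metalloproteinase that activates pro-MMP2, had 10.45, 10.27 and 9.98 in Dox + sACVR2B 1 to 3, 10.18, 10.23, 9.42 and 9.49 in Dox 1, 3, 4 and 5, and 10.15, 10.09 and 10.25 in Ctrl 1, 4 and 5. Among the other 5 arrays Mmp14 had 11.35 and 10.68 (Dox + sACVR2B 4 and 5), 10.87 (Dox 2) and 11.54 and 10.92 (Ctrl 2 and 3). All 5 lay above all 10, and the difference of medians was -0.76. Timp1, the inducible inhibitor of metalloproteinases, had 8.44, 8.51 and 7.57 in Dox + sACVR2B 1 to 3, 8.26, 8.11, 7.22 and 7.28 in Dox 1, 3, 4 and 5, and 8.49, 8.78 and 8.33 in Ctrl 1, 4 and 5. Among the other 5 arrays Timp1 had 9.15 and 8.84 (Dox + sACVR2B 4 and 5), 9.06 (Dox 2) and 10.68 and 9.28 (Ctrl 2 and 3). The difference was -0.85, the nearest arrays of the 2 sets were Ctrl 4 at 8.78 and Dox + sACVR2B 5 at 8.84, and both Timp1 probes on the array were apart in this way.

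Their partners differed less or ran the other way. Mmp2, the gelatinase that MMP14 activates, had 11.07, 12.03 and 12.21 as lowest, median and highest level in the 10 arrays, against 12.09, 11.68, 11.81, 12.18 and 12.19 in Dox + sACVR2B 4 and 5, Dox 2 and Ctrl 2 and 3. Its difference of medians was -0.06, with ranges that were largely shared. Timp2, which takes part in the activation of pro-MMP2, had 11.07, 11.71 and 11.98 in the 10 arrays, against 12.16, 12.02, 11.91, 11.85 and 11.96 in the same 5, a difference of -0.25 with overlap. Timp3, an inhibitor bound to the matrix, had 10.83, 11.23 and 11.93 in the 10 arrays, against 10.66, 10.87, 11.15, 10.97 and 10.93. Adamts1, a protease that cleaves versican, had 6.99, 7.61 and 8.31, against 7.12, 7.17, 7.43, 7.06 and 7.05. Timp3 (0.30) and Adamts1 (0.49) had medians above those of the other 5 arrays, both with overlap, and Timp3 was singled out after its values were seen. Serpinf1, which encodes the serpin PEDF, differed by -0.42 with overlap.

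**Figure D2:**
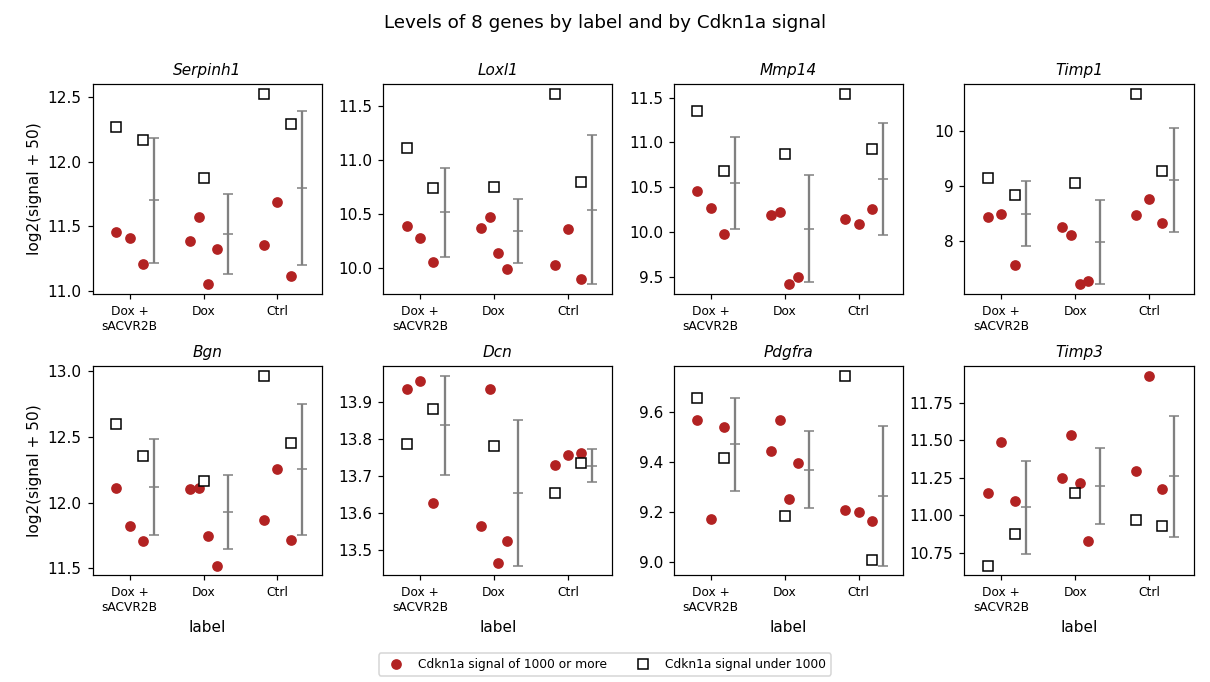
Level of 8 genes, log2(signal + 50), in each array by label (Dox + sACVR2B, Dox, Ctrl), with filled circles for arrays with a Cdkn1a signal of 1000 or more and open squares for the rest, and a grey bar for the mean and SD of the 5 arrays of a label. The circles lie below the squares in all 3 labels for Serpinh1, Loxl1, Mmp14, Timp1 and Bgn, and mix with them for Dcn and Pdgfra.

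Among the glycoproteins 11 of 12 genes had a difference below 0, with a median of -0.37 and 0 genes free of overlap. Tenascin C (Tnc), a glycoprotein of tendon and of repairing muscle, had 7.40, 8.87 and 9.21 as lowest, median and highest level in the 10 arrays. In the other 5 arrays it had 9.83 and 9.21 in Dox + sACVR2B 4 and 5, 9.04 in Dox 2, and 9.71 and 9.76 in Ctrl 2 and 3. The overlap came from Dox + sACVR2B 1, whose level of 9.21 lay above that of Dox 2. Mfap2, a component of elastin-associated microfibrils, had 7.32, 7.93 and 8.37 in the 10 arrays, against 8.91, 8.31, 8.54, 9.12 and 8.63 in Dox + sACVR2B 4 and 5, Dox 2 and Ctrl 2 and 3. Its difference was -0.70, and Ctrl 4 was the array of the 10 that reached into the range of the other 5.

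Fibulins and thrombospondins varied among themselves. Fbln1, a fibulin of basement membranes and elastic fibres, had 8.40, 9.07 and 9.59 in the 10 arrays, against 9.33, 9.42, 9.55, 10.50 and 9.51 in Dox + sACVR2B 4 and 5, Dox 2 and Ctrl 2 and 3. Thbs2, an antiangiogenic matricellular protein, had 8.68, 10.03 and 10.54, against 11.12, 10.42, 10.44, 10.45 and 11.04. Fbln2 had 9.39, 10.02 and 10.32, against 9.82, 10.16, 9.22, 9.85 and 9.28. Fbln2 was thus the 1 glycoprotein with a difference above 0, at 0.20, while Fbln1 and Thbs2 were at -0.44 and -0.42. Of the other 7, fibronectin (Fn1) had the lowest difference, -0.47, followed by the collagen-binding Sparc at -0.43. Elastin (Eln), Tnxb, Mfap5, Col14a1 and dermatopontin (Dpt) lay between -0.32 and -0.20, and all 7 overlapped.

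In the basement membrane 8 of 9 genes had a difference below 0, with a median of -0.29 and 0 genes free of overlap. Col15a1, a collagen that links the basement membrane to the matrix beneath, stood lowest at -0.77. Its levels were 9.00, 9.40 and 9.90 as lowest, median and highest of the 10 arrays, against 10.27, 10.18, 9.89, 10.69 and 9.95 in Dox + sACVR2B 4 and 5, Dox 2 and Ctrl 2 and 3. The ranges met only where Dox 3 at 9.90 lay just above Dox 2 at 9.89. Nid2, a nidogen that bridges laminin and type IV collagen, had 7.00, 7.38 and 7.92 in the 10 arrays, against 7.84, 7.46, 7.69, 8.42 and 7.78, and Nid1 had 9.28, 9.44 and 9.92, against 9.89, 9.41, 9.65, 10.40 and 9.74. Both nidogens overlapped broadly, with differences of -0.40 and -0.29.

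The laminin chains and type IV collagen differed less than Col15a1. Lama2, the laminin chain whose loss causes a congenital muscular dystrophy, had 7.93, 8.31 and 8.58 in the 10 arrays, against 8.26, 8.44, 8.51, 8.17 and 8.11 in the other 5, a difference of 0.05. Lamc1, the chain shared by most laminins, had 10.48, 10.75 and 11.22, against 10.98, 10.82, 11.08, 11.44 and 10.96. Col4a2 had 11.17, 11.51 and 12.09, against 11.89, 11.71, 11.68, 12.35 and 11.79. Lamc1 (-0.24), Col4a2 (-0.29) and Col4a1 (-0.21) lay below 0 and overlapped the other 5 arrays, as did Lama4 (-0.12) and Lamb1 (-0.39), the dimmest genes of the list with mean signals of 18.7 and 20.6.

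The proteoglycans divided. Biglycan (Bgn) had 12.11, 11.82 and 11.71 in Dox + sACVR2B 1 to 3, 12.10, 12.11, 11.74 and 11.52 in Dox 1, 3, 4 and 5, and 11.87, 12.26 and 11.71 in Ctrl 1, 4 and 5. In the other 5 arrays it had 12.60 and 12.36 (Dox + sACVR2B 4 and 5), 12.17 (Dox 2) and 12.97 and 12.45 (Ctrl 2 and 3). Within each label the 2 sets were apart, and over all labels only Ctrl 4 at 12.26 lay above Dox 2 at 12.17. Decorin (Dcn), the close relative of biglycan that coats collagen fibrils, had 13.46, 13.74 and 13.96 in the 10 arrays, against 13.79, 13.88, 13.78, 13.65 and 13.73. Its difference of -0.04 stood beside -0.61 for Bgn. Dimmer Dcn probes differed by 0.16, 0.18 and -0.002, all with overlap.

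Lumican (Lum) had 9.60, 10.59 and 11.09 in the 10 arrays, against 11.37, 10.79, 10.90, 10.62 and 11.19 in Dox + sACVR2B 4 and 5, Dox 2 and Ctrl 2 and 3. Osteoglycin (Ogn) had 10.38, 10.94 and 11.28, against 11.37, 11.06, 10.79, 11.26 and 11.15. Fibromodulin (Fmod), abundant in tendon, had 8.84, 9.90 and 10.28, against 10.10, 10.27, 9.84, 8.40 and 10.05. All 3 are small leucine-rich proteoglycans that bind collagen, and all 3 overlapped, with differences of -0.31, -0.21 and -0.14. The lowest Fmod level of all arrays, 8.40, was that of Ctrl 2.

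Of the 3 surface genes, Thy1 had the largest difference and Pdgfra the smallest. Thy1, a surface glycoprotein of fibroblasts and neurons, had 9.00, 8.41 and 8.61 in Dox + sACVR2B 1 to 3, 9.13, 9.27, 8.84 and 9.07 in Dox 1, 3, 4 and 5, and 8.63, 8.97 and 8.63 in Ctrl 1, 4 and 5. In the other 5 arrays it had 9.63 and 9.88 (Dox + sACVR2B 4 and 5), 9.46 (Dox 2) and 10.28 and 9.24 (Ctrl 2 and 3). The 2 sets were apart within each label, and overlapped only where Dox 3 at 9.27 lay above Ctrl 3 at 9.24. Cd34, carried by fibroblast progenitors and endothelium, had 7.54, 7.82 and 8.40 in the 10 arrays, against 8.09, 7.98, 8.24, 8.94 and 8.23. Pdgfra, the receptor that marks muscle fibroblasts and their progenitors, had 9.16, 9.32 and 9.57, against 9.66, 9.42, 9.19, 9.75 and 9.01. The differences were -0.73 for Thy1, -0.41 for Cd34 and -0.09 for Pdgfra.

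**Figure D3:**
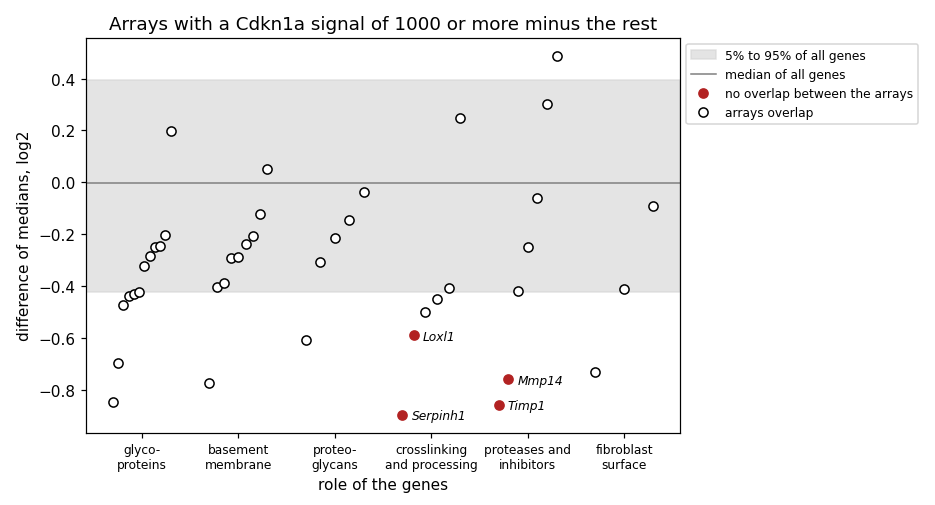
Difference of medians, log2, of the 10 arrays with a Cdkn1a signal of 1000 or more minus the other 5 for each of the 42 genes (points, by role), with red points for genes without overlap, a line for the median of all 11458 genes and a band from their 5% to their 95% quantile. The band runs from -0.42 to 0.39, 15 points lie below it, Serpinh1, Loxl1, Mmp14 and Timp1 among them, and 1 point, Adamts1 at 0.49, lies above it.

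Label by label, 9 of the 42 genes were lower in the arrays with a Cdkn1a signal of 1000 or more than in the other arrays of the same label in all 3 labels. They were Mfap2, Bgn, Lox, Loxl1, P4ha1, Serpinh1, Mmp14, Timp1 and Thy1. Over all genes this held for 509 (4.44%), and the opposite held for 572 (4.99%) of all genes and 0 of the 42. Serpinh1, Loxl1, Mmp14 and Timp1, lower without overlap over all arrays, are in the count of 9 by construction. The label Dox has a single array under 1000, Dox 2, so its part of this count rests on that array. For 22 of the 42 genes the array held 34 further probes above noise, of which 28 had a difference of the same sign as the brightest probe.

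Among the 10 arrays the genes also varied together. After their values were seen, Dox 4 and Dox 5 were singled out, since 1 of them had the lowest level of the 10 for 27 of the 42 genes (64.3%), against 28.0% of all genes. With Dox + sACVR2B 3 added, the count was 30 of 42 (71.4%), against 39.2% of all genes. Averaged over the 42 genes, the level relative to the gene's median over the 15 arrays was -0.41 in Dox 4, -0.42 in Dox 5 and -0.29 in Dox + sACVR2B 3, and lay between -0.12 and 0.11 in the other 7. For Mmp2, Lum and Fmod, none of which separated by Cdkn1a, Dox 4 and Dox 5 were the 2 lowest of the 10. At the upper end Ctrl 2 had the highest level of all 15 arrays for 22 of the 42 genes (52.4%), against 13.1% of all genes, and an average of 0.54.

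Markers of cell types that a TA sample can hold moved with some of these arrays. The 7 fibroblast markers, of which Pdgfra, Dcn and Lum are also in the list, summed to 19842 to 32256 signal units in the 10 arrays and to 29898 to 37217 in the other 5. Dox 4 (19842), Dox 5 (20844) and Dox + sACVR2B 3 (23884) had the 3 lowest sums. Dcn and Col1a1 made up most of each sum. Col1a1, Col1a2, Dcn, Lum and Tcf4 were each lowest of the 10 in Dox 4, Dox 5 or Dox + sACVR2B 3. Pdgfra was not, with signals of 559.6, 624.6 and 694.7 there and its lowest in Ctrl 5 (523.9). Pdgfrb was lowest of the 10 in Dox 1 (271.4). The 6 tendon markers, Fmod among them, summed to 708 to 1972 in the 10 arrays, with Dox 5 lowest, and to 881 to 2242 in the other 5, with Ctrl 2 lowest. The 4 macrophage markers above noise summed to 606 to 1850, against 815 to 2048 with Ctrl 2 highest, and the 5 endothelial markers to 3893 to 6054, against 4331 to 6030. In none of the 10 marker lists did any gene separate the 2 sets of arrays, and the part of cell types in the levels of the 42 genes was not tested.

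The comparison of Dox with Ctrl by label asks what doxorubicin alone does to these genes within a day. None of the 42 genes passed an adjusted p of 0.05 with limma, nor did any of the 11458 genes (0.0%). The study, in contrast, reports Foxo1 and REDD1 among genes raised by doxorubicin at an adjusted p under 0.05 on these arrays. The reason for that difference was not tested. At an unadjusted p under 0.05 limma listed 9 of the 42, against 1235 of all genes (10.8%), and all 9 were lower in the libraries labelled Dox. The median log2 fold change of the 42 genes was -0.23, with 33 below 0 and 9 above, against 0.00 over all genes. It was -0.35 without Ctrl 5 and ran up to -0.17 with other single arrays left out.

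Lox had the smallest p. Its levels were 8.72, 9.22, 9.22, 8.17 and 7.81 in Dox 1 to 5 and 9.17, 10.31, 9.50, 9.28 and 9.23 in Ctrl 1 to 5, overlapping only through Ctrl 1. Lox averaged 8.63 ± 0.63 in libraries labelled Dox and 9.50 ± 0.47 in those labelled Ctrl (SD, n = 5 each), a log2 fold change of -0.87 (SE 0.28, adjusted p = 0.343 with limma). Mmp2 had 11.77, 11.81, 12.21, 11.32 and 11.07 in Dox 1 to 5 and 12.12, 12.18, 12.19, 12.14 and 12.11 in Ctrl 1 to 5. It was even among the Ctrl libraries and lower than all of them in 4 of the 5 labelled Dox, with a log2 fold change of -0.51 (SE 0.17, adjusted p = 0.351 with limma). Timp1 had the fold change farthest from 0, -1.13 (95% interval -2.01 to -0.25, adjusted p = 0.4 with limma), on means of 7.99 ± 0.76 in Dox and 9.11 ± 0.95 in Ctrl libraries (SD, n = 5 each). Tnc (-0.90), Thbs2 (-0.75), Fbln1 (-0.67), Col4a2 (-0.42), Sparc (-0.40) and Ogn (-0.33) made up the rest of the 9. None of these values passed the adjustment. The count of 9 moved to 3 without Ctrl 2 (968 of all genes), 4 without Dox 4 (866) and 5 without Dox 5 (769). It moved to 15 without Ctrl 5 (1508 of all genes) and to 14 without Dox 2 (1830). With every array kept, 1235 of all genes had an unadjusted p under 0.05 with limma. The count over all genes thus moved in the same direction as that of the 42 in each of these cases.

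Without the 6 libraries whose Cdkn1a went against the label, 4 libraries labelled Dox, all with a Cdkn1a signal of 1000 or more, were left against 2 labelled Ctrl, both under 1000. Label and Cdkn1a class are then the same division, chosen by a measured level, so the p of that fit is no test of the label or of the division. As counts only, 14 of the 42 genes and 1068 of all genes (9.32%, with 4.91% lower and 4.41% higher) went past an adjusted p of 0.05 with limma, and all 14 were lower in Dox. The median log2 fold change of the 42 was -0.59. Ctrl 2, the highest array for 22 genes, is 1 of the 2 Ctrl libraries kept.

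**Figure D4:**
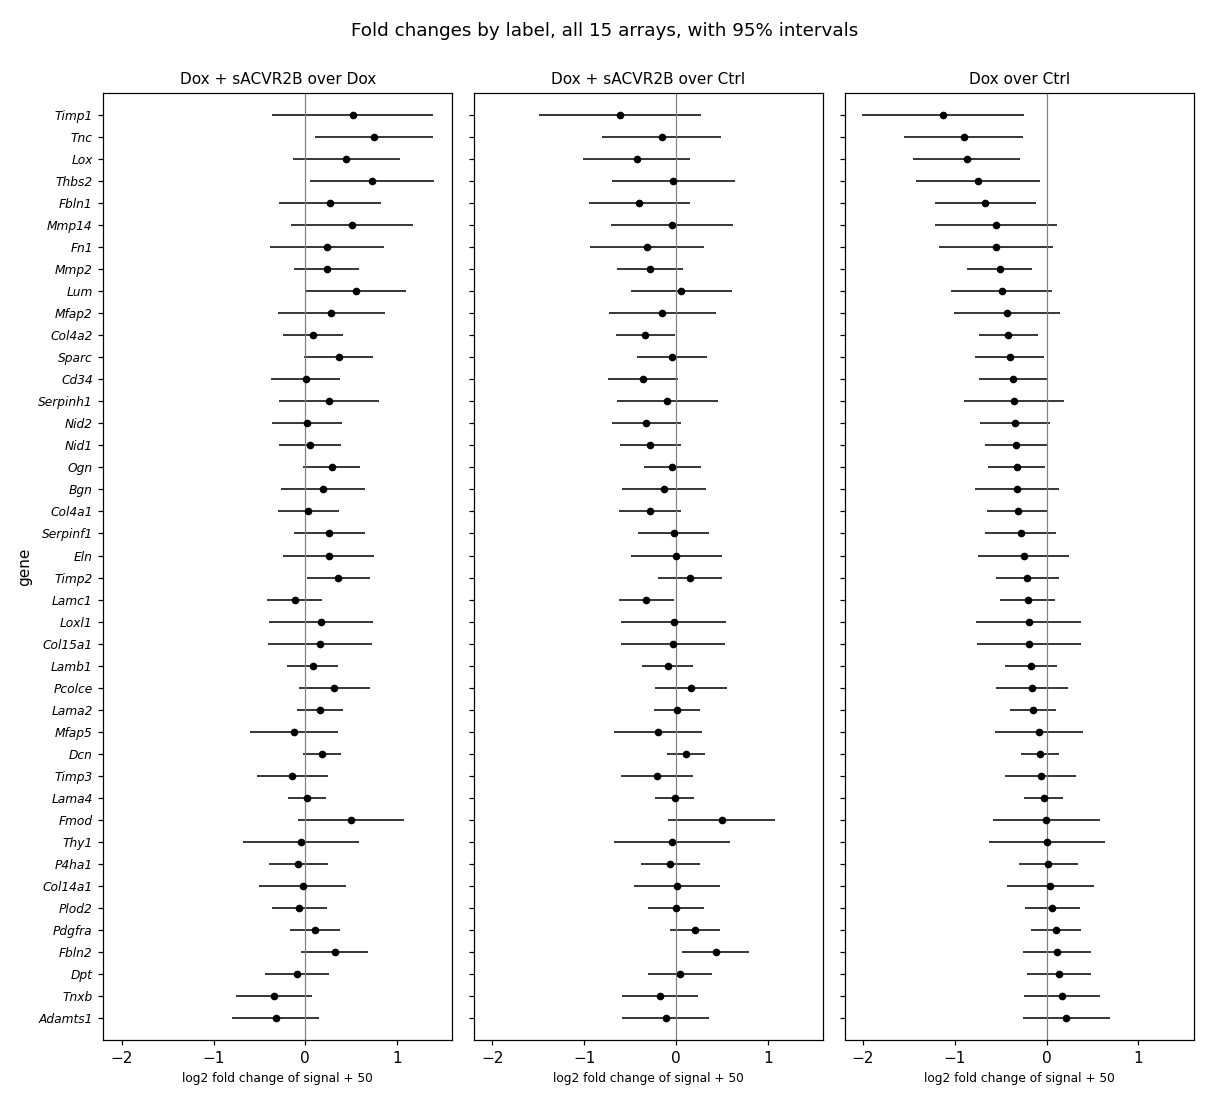
Log2 fold changes of signal + 50 by label over all 15 arrays (points, with 95% intervals from limma) for the 42 genes (rows, in the order of Dox over Ctrl), in panels for Dox + sACVR2B over Dox, Dox + sACVR2B over Ctrl and Dox over Ctrl. Points lie below 0 for 10, 31 and 33 of the 42 genes in the 3 panels, many intervals cross 0, and no gene passed the adjustment.

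The comparison of Dox + sACVR2B with Dox asks what the soluble receptor adds to doxorubicin. With limma 0 of the 42 genes and 0 of all genes (0.0%) passed, and 3 of the 42 had an unadjusted p under 0.05, against 499 of all genes (4.36%). These were Tnc, Thbs2 and Timp2. Tnc had 9.21, 9.01, 8.20, 9.83 and 9.21 in Dox + sACVR2B 1 to 5 and 8.42, 9.04, 8.83, 8.02 and 7.40 in Dox 1 to 5. The groups overlapped through Dox + sACVR2B 3, and the log2 fold change was 0.75 (SE 0.31, adjusted p = 0.996 with limma). Thbs2 had 10.24, 10.54, 9.41, 11.12 and 10.42 in Dox + sACVR2B 1 to 5 and 10.05, 10.44, 9.82, 9.11 and 8.68 in Dox 1 to 5, a log2 fold change of 0.72 (SE 0.32) with overlap. Timp2 differed by 0.36 (SE 0.16). For this comparison the study marks Psmd8 and Oxct1 as significant after adjustment. It lists Fn1 as lower, without significance, whereas Fn1 had a log2 fold change of 0.23 here. The reason for these differences was not tested.

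For Dox + sACVR2B over Dox the median over the 42 genes was 0.18, with 32 above 0 and 10 below, against 0.00 over all genes. It was 0.09 without Dox + sACVR2B 4, 0.10 without Dox 5 and 0.27 without Dox + sACVR2B 3. With 1 array left out the count of 3 ran between 0 without Dox 5 (3.3% of all genes) and 13 without Dox 3 (6.36%). It was 1 without Dox 4 (2.56%), Dox + sACVR2B 4 (4.16%) or Dox + sACVR2B 5 (3.53%). The count was 5 without Dox 1 (4.72%) and 7 without Dox 2 (6.75%) or Dox + sACVR2B 3 (4.15%). Without Dox + sACVR2B 1 it was 2 (3.86%). Among the arrays with a Cdkn1a signal of 1000 or more alone, where 3 libraries of Dox + sACVR2B meet 4 of Dox, the median was 0.03 and again 0 of the 42 passed with limma. That set is also what is left for this comparison without the 6 libraries.

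The comparison of Dox + sACVR2B with Ctrl asks what the combined treatment does. Again 0 of the 42 genes and 0 of all genes (0.0%) passed with limma, and 3 of the 42 had an unadjusted p under 0.05, against 1032 of all genes (9.01%). Fbln2 had 10.32, 10.19, 10.15, 9.82 and 10.16 in Dox + sACVR2B 1 to 5 and 9.99, 9.85, 9.28, 9.39 and 9.96 in Ctrl 1 to 5. Only Dox + sACVR2B 4 lay within the range of the Ctrl libraries, and the log2 fold change was 0.43 (SE 0.17, adjusted p = 0.518 with limma). Lamc1 (-0.33, SE 0.14) and Col4a2 (-0.33, SE 0.15) were the other 2. The median of the 42 genes was -0.05, with 11 above 0 and 31 below. It ran between -0.17 without Dox + sACVR2B 4 and 0.03 without Dox + sACVR2B 3, where it changed sign. It was -0.15 without Ctrl 1, -0.16 without Ctrl 5, -0.12 without Dox + sACVR2B 5, -0.09 without Ctrl 4, -0.03 without Ctrl 3 and 0.00 without Ctrl 2. The count of 3 ran between 0, without Ctrl 4 (5.55% of all genes) or Dox + sACVR2B 1 (7.92%), and 7 without Ctrl 5 (10.4%). It was 6 without Dox + sACVR2B 4 (8.86%) and 1 without Dox + sACVR2B 3 (5.71%). The count was 2 without Ctrl 2 (8.16%), Ctrl 3 (8.58%), Dox 1 (8.35%), Dox 5 (8.88%) or Dox + sACVR2B 2 (8.88%).

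Without the 6 libraries, 3 of Dox + sACVR2B, all with a Cdkn1a signal of 1000 or more, were left against 2 of Ctrl under it, so that here too the p of the fit tests neither the label nor the division. As counts only, 7 of the 42 genes and 623 of all genes (5.44%, with 2.63% lower and 2.81% higher) went past an adjusted p of 0.05 with limma, all 7 lower in Dox + sACVR2B, and the median of the 42 was -0.57. The 2 Ctrl libraries are the same as those set against Dox.

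Each p measures only the spread between arrays of 1 mouse each under labels of which 6 are in doubt. With the Cdkn1a class as a block beside the label, 0 genes passed with limma, and the median of the 42 genes was -0.17 between Dox and Ctrl. Between Dox + sACVR2B and Dox it was 0.09, and between Dox + sACVR2B and Ctrl -0.05.

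Further genes of the same pathway showed where the contrast with Cdkn1a extended. Their 5 lists were chosen for their roles, with earlier results of these data known. The fibrillar and related collagens had 11 of 11 genes with a difference below 0, where 5780 of all 11458 genes had one, and a median of -0.62. Of these, 4 were lower without overlap, beside 1.89% of all genes, namely Col5a1 and Col5a2, which regulate fibril diameter, Col8a1 and Col18a1. Col5a1 had levels of 10.10 to 11.08 in the 10 arrays and of 11.28 to 11.77 in the other 5. Of 24 other matrix glycoproteins 0 were without overlap, with a median of -0.28, and of 14 other collagen enzymes 0, with a median of -0.29.

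Among 19 other proteases and inhibitors, Mmp23 and the plasminogen activator Plat were lower without overlap, again beside 1.89% of all genes, and the median was -0.21. Mmp9 and cathepsin K (Ctsk) had differences of -1.61 and -1.59 with overlap. Among 23 regulators of TGF-beta signalling and the matrix, Fstl1 and Pdgfa were lower without overlap, beside the same 1.89% of all genes. Fstl1, a secreted follistatin-like protein, had 7.82 to 8.67 in the 10 arrays and 8.95 to 9.98 in the other 5. The median of the regulators was -0.08, nearer 0 than any of the other lists, and Ski, a repressor of Smad signalling, had 1.32 with overlap. By label, 0 genes of the 5 lists passed with limma in any of the 3 comparisons.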

How the data were processed

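The deposited values, used here as log2(signal + 50), are signal intensities that the authors made from 45281 probes of Illumina bead arrays by quantile normalization, and 34.0% of them are below 0, as after background subtraction. A non-normalized table of 30 columns, whose names match no label, was not used. Genes were named through the platform annotation (34885 probes with 1 gene, 18 with several, 10378 with none). The noise SD, estimated from values below 0, was 7.52, and 21307 probes above 12.4 in at least 5 arrays were kept. A gene's brightest probe stood for it.

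Labels were compared with limma 3.58.1 in R 4.3.3 (all 15 arrays, two-sided, Benjamini-Hochberg over kept probes), tested on simulated data. Plots used matplotlib 3.10.9. Alternatives were other offsets, no filter, cyclic loess, another prior, array weights, the median over probes, 2 groups alone, Cdkn1a or replicate number as a block, and leaving out libraries. The genes and lists were chosen with earlier results of these data known. Members were named with their levels where they had, within their role, the 2 smallest p of a comparison or the 2 largest differences by Cdkn1a. Others named were chosen after their values were seen.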

Additional observations from a re-analysis of the deposited data

Results flagged for a closer look

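In 81 groups of 5 arrays of 1 label, 5 had 1 array standing apart from the other 4 by Dixon's criterion (the gap to the nearest array over the whole range), where chance gives about 1 in 20. Dox + sACVR2B 4 had the highest level of its label for both nidogens, 9.89 for Nid1 against 9.41 to 9.54 in the other 4, and 7.84 for Nid2 against 7.34 to 7.46. Ctrl 2 stood apart in 3 genes of its label, with 10.31 for Lox against 9.17 to 9.50, 9.75 for Pdgfra against 9.01 to 9.21, and 8.40 for Fmod against 9.71 to 10.05. Fmod was thus low in the array that was highest for 22 of the 42 genes.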

How the results depend on the processing

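With all libraries kept, 0 of the 42 genes passed for any label comparison under any alternative run. Leaving out the 6 libraries whose Cdkn1a went against the label, which makes label and Cdkn1a class the same division, put 14 of the 42 genes and 1068 genes past the threshold for Dox against Ctrl (median -0.59) and 7 and 623 for Dox + sACVR2B against Ctrl (median -0.57). With single arrays left out, which cannot lower the count, the genes without overlap by Cdkn1a ranged between 4 and 7. With the median over probes they were 5. With single arrays left out, the medians of the 42 genes ran between -0.35 and -0.17 for Dox against Ctrl, between 0.09 and 0.27 for Dox + sACVR2B against Dox, and between -0.17 and 0.03 for Dox + sACVR2B against Ctrl. The difference of Pcolce for Dox + sACVR2B against Ctrl turned to -0.27 without the 6 libraries. That of Thy1 for Dox + sACVR2B against Dox ran between -0.24 and 0.13 with single arrays left out, and was above 0 without Dox 2, Dox + sACVR2B 2 or Dox + sACVR2B 3. The cause was not tested. With the replicate number as a block 0 genes passed and the medians of the 42 genes stayed at -0.23, 0.18 and -0.05. Same-numbered arrays deviated with correlations of -0.38 to 0.35, above 0.1 in 4 of 15 pairs, so the numbers were not taken as pairs. The number of arrays and 6 doubtful labels limit what the label comparisons can show.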
